A study of Mus musculus with 28 samples.

Results

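The genes described here are 50 genes that mark cells in division, 19 of them used at the G1/S boundary and in DNA synthesis and 31 in G2 and mitosis. They were taken by symbol from a list drawn up for this work, and each was read through the probe set of highest mean among those that name that gene alone. All 50 had such a probe set among the 18193 genes read this way, and 35 of them had more than 1 to choose from. The list was made with earlier results of these data known. The study measured RNA from mouse spleen on 28 one-colour arrays, and its purpose, as its title gives it, was the effect of dietary abscisic acid, a plant hormone, on the spleen transcriptome of mice challenged with LPS, the lipopolysaccharide of bacterial outer membranes. Arrays fall into 12 groups by experiment, genotype, diet and challenge. In the wild-type-only experiment, 4 arrays came from the ABA diet with LPS, 2 from the ABA diet without LPS, 4 from the control diet with LPS and 2 from the control diet without LPS. In the experiment with both genotypes, each of the same 4 combinations of diet and challenge has 2 arrays from null mice and 2 from wild-type mice. Null mice are labelled PPAR g flfl; MMTV-Cre+ and wild-type mice PPAR g flfl; MMTV-Cre-, so both carry floxed alleles of the nuclear receptor gene Pparg and differ in the Cre recombinase driven by the MMTV promoter. The labels call the null spleen-specific in one place and specific to epithelial and immune cells in another. They name 40 mice of each genotype, but neither the dose or time of LPS, the ages, nor whether an array holds 1 animal or several; p-values therefore measure the spread between arrays, which may be partly technical.

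A dividing cell passes the G1/S boundary when E2F transcription factors, freed by cyclin-dependent kinases, switch on the genes for DNA precursors, for the loading of the MCM helicase onto replication origins and for the replication fork. Genes for the G2/M kinases, the spindle and the kinetochore follow later, many of them through the MuvB complex with MYBL2 and FOXM1, which binds a short promoter element called the CHR. In the mouse spleen, division is found in red cell precursors of the red pulp, which stay active in adult mice, and in activated lymphocytes, above all B cells of germinal centres. A whole-spleen RNA sample holds all of these, and fewer dividing cells cannot be told apart from less of these transcripts per cell.

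The 2 experiments were normalised apart, with a lowest value of 2.29 on every array of one and 2.24 in the other, so no level is compared between them. Markers of B cells, the most abundant cells of the spleen, averaged 7.90 to 9.55 on a log2 scale in one experiment and 8.10 to 10.1 in the other. Pparg has a single probe set, within 0.5 log2 units of the lowest value on 6 of 8 null arrays and on 7 of 8 wild-type arrays of the same experiment, so its level says nothing about which genotype an array holds. Acinar pancreas transcripts such as Cpa1, carboxypeptidase A1, were high on 4 arrays: replicate 2 without LPS of null mice on either diet, and, in the wild-type-only experiment on the control diet, replicate 2 with LPS and replicate 1 without. Xist, expressed from the inactive X chromosome of females, was high on 12 of 12 arrays where all mice were wild type and on 6 of 16 where both genotypes were run. In wild-type mice of the latter on the control diet, it read 12.46 and 12.17 with LPS, against 2.25 and 2.24 without. High Xist and LPS cannot be told apart in that pair of groups. On the ABA diet it was low on both challenged wild-type arrays and high on unchallenged replicate 1 (12.56), not on replicate 2 (2.24).

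LPS went with lower levels of division genes in wild-type spleens on both diets. In a limma fit of all 20 wild-type arrays with experiment as a term, 32 of the 50 fell on the ABA diet and 11 of the 50 on the control diet, at a Benjamini-Hochberg adjusted p under 0.05 over 13458 genes, and none rose on either diet. Over all genes tested, 6.33% fell and 8.93% rose on the ABA diet, and 7.50% fell and 10.6% rose on the control diet. The median log2 change of the 50, where 1 unit is a factor of 2, was -1.87 on the ABA diet and -1.26 on the control diet, beside a median near 0 over all genes on each. All 50 fitted changes were negative on both diets. By class, 25 of 31 fell on the ABA diet (median -2.27) and 8 of 31 on the control diet (median -1.55), beside 7 of 19 G1/S genes on the ABA diet (median -1.16) and 3 of 19 on the control diet (median -0.61). The 11 that fell on the control diet fell on the ABA diet too: Birc5, Ccnb2, Ccne2, Cdc25b, Cenpa, Cenpf, Kif23, Mki67, Rrm2, Tk1 and Ube2c. These counts pool experiments that differ in size of change. In the wild-type-only experiment the median change was -1.45 on the ABA diet, with 3 genes called (Cdc25b at -2.88, Cdc25c at -1.59 and Tyms at -0.27), beside 4.70% of all genes lower, and -0.51 on the control diet, with 1 called (Cdc25b at -2.48) beside 5.45%. In the wild-type-only experiment Tyms read 2.29, the lowest value, on every challenged ABA array, against 2.73 and 2.39 without LPS. Its call thus rests on values near the lowest. In the experiment with both genotypes the median change was -2.52 on the ABA diet and -2.35 on the control diet. There 0 were called on either diet at 2 arrays a group (beside 0.119% and 0.728% of all genes lower). The change was negative in both experiments for 48 of 50 genes on the ABA diet and 41 of 50 on the control diet. Single arrays moved the counts, and shares of all genes are not given for the fits with 1 array left out. Leaving out 1 array of the 20 gave 9 to 42 genes on the ABA diet, 9 without unchallenged ABA replicate 1 of the wild-type-only experiment, and 4 to 22 on the control diet, 4 without unchallenged control-diet replicate 1 or 2 or challenged replicate 2 of the experiment with both genotypes and 22 without its unchallenged ABA replicate 1.

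**Figure D1:**
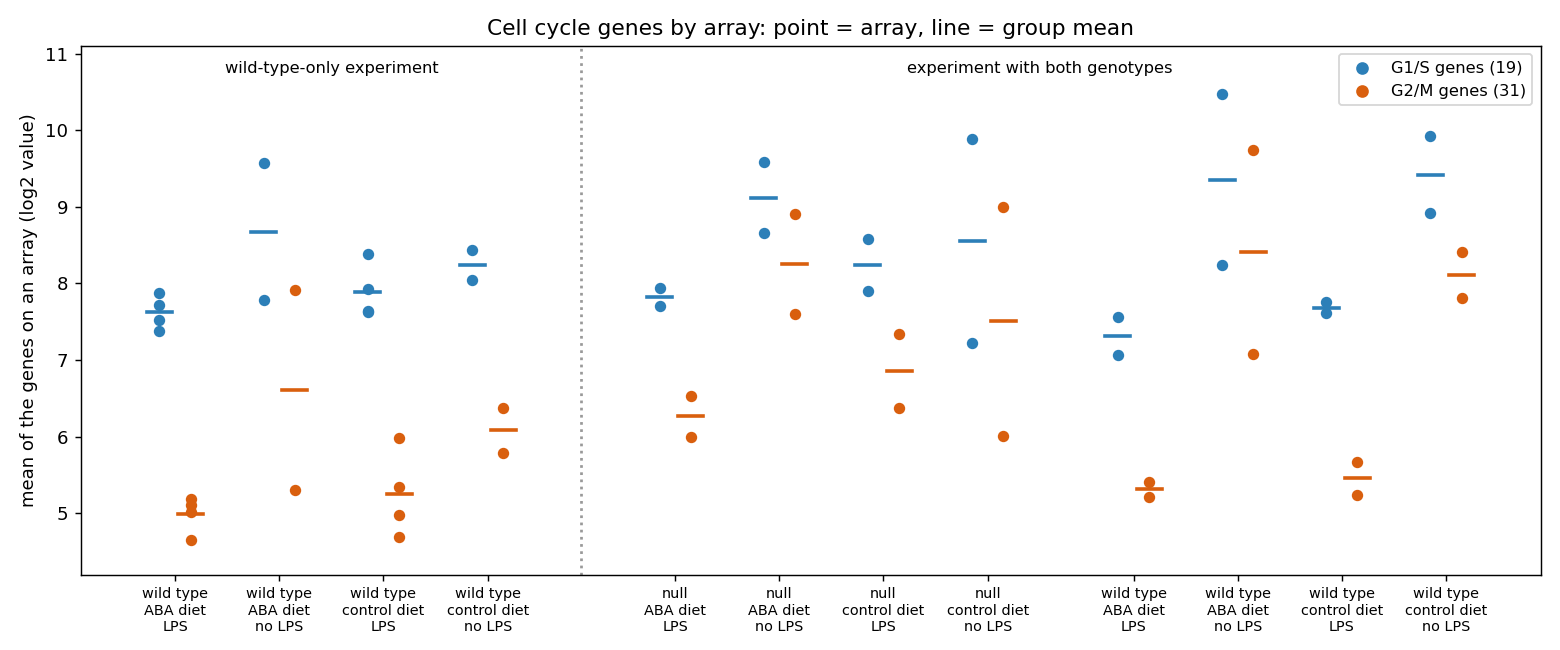
Mean log2 value of the 19 G1/S genes (blue) and the 31 G2/M genes (orange) on each array, by group; each point is an array, each line a group mean, and the dotted line parts the experiments. The G2/M means of challenged wild-type arrays in the experiment with both genotypes lie between 5.22 and 5.67, below the unchallenged arrays at 7.08 to 9.74, while the null arrays overlap on the control diet and not on the ABA diet.

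The plot of class means by array shows how far this held array by array. In wild-type mice of the experiment with both genotypes, the G2/M mean was 5.22 to 5.67 with LPS, against 7.08 to 9.74 without, and the G1/S mean was 7.07 to 7.75 with LPS, against 8.25 to 10.5 without. In null mice the G2/M mean was 6.00 to 7.34 with LPS, against 6.02 to 8.99 without. In the wild-type-only experiment it was 4.65 to 5.99 with LPS, against 5.30 to 7.92 without. With both diets pooled, challenged and unchallenged arrays thus stood apart in wild-type mice of one experiment and overlapped in the other sets. Setting group means against each other within each diet gives 6 pairs, and the G2/M difference was the more negative in 6 of 6. In 4 of the 6 every challenged array had a lower G2/M mean than every unchallenged one: both wild-type pairs of the experiment with both genotypes, null ABA mice (6.00 and 6.54 with LPS, against 7.60 and 8.91 without) and ABA mice of the wild-type-only experiment (4.65 to 5.19 with LPS, against 5.30 and 7.92 without). The G1/S means did so in 3 of the 6. The G2/M difference ranged from -3.10 in wild-type ABA mice of the experiment with both genotypes to -0.64 in null control-diet mice. The G1/S difference in the same pairs was -2.04 and -0.31. The highest array carried much of the spread: replicate 1 of the unchallenged wild-type ABA group holds the highest value of its experiment for 47 of 50 genes in the wild-type-only experiment and for 44 of 50 in the other.

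Promoter sequence of the 2 classes was searched for these elements in the RefSeq windows from 250 bases before to 50 after each start (GRCm38.p6), held for 42 of the 50 genes. The CHR, searched as TTTGAA on both strands, was in 17 of 25 G2/M promoters (68.0%) and 3 of 17 G1/S promoters (17.65%), beside 20.23% of 27025 promoters of all genes. E2F sites, searched on both strands as TTTCGCGC, TTTGGCGC, TTTCCCGC or TTTGCCGC, were in 1 of 25 G2/M promoters (4.0%) and 6 of 17 G1/S promoters (35.29%), beside 2.6% of all. The CCAAT box, searched as CCAAT on both strands, was in 18 of 25 (72.0%) and 10 of 17 (58.82%), beside 41.06%. A CCAAT box together with a CHR stood in 15 of 25 G2/M promoters (60%), 3 of 17 G1/S promoters (17.65%) and 8.97% of all. These are matches of letters and not shown to be sites. On the ABA diet 12 of 17 G2/M genes with a CHR match fell with LPS (median -2.27), and 8 of 8 without one (median -2.66). On the control diet 6 of 17 with a match fell (median -1.57), and 2 of 8 without one (median -1.81). The promoters of 5 genes are printed to show such matches, with matched letters in capitals and the rest in lower case, each 300 bases from 5′ to 3′ on the gene's strand. Cdc6 (chr11:98907901-98908200, plus strand) and Cdc25b (chr2:131186698-131186997, plus strand) had the smallest adjusted p on the ABA diet in their class among genes with a window, and Mcm5 (chr8:75109259-75109558, plus strand), Mki67 (chr7:135716330-135716629, minus strand) and Ccnb2 (chr9:70421505-70421804, minus strand) were added beyond that rule, to show the matches. The capitals in Cdc6 mark an E2F match, those in Mcm5 a pair of overlapping E2F matches and then CCAAT boxes, and those in Cdc25b a CCAAT box read on the other strand.
Cdc6: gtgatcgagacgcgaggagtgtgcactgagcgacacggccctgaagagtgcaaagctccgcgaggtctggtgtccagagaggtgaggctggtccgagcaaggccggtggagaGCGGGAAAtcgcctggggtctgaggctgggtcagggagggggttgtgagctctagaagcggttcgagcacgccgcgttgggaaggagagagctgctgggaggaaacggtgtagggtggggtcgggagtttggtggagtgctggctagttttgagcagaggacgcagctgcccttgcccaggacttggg
Mcm5: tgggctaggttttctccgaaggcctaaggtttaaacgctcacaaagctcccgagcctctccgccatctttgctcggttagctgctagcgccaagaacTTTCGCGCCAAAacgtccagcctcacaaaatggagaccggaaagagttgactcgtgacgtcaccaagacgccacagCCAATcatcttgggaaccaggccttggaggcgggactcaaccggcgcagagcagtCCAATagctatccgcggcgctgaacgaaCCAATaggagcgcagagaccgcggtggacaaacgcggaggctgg
Cdc25b: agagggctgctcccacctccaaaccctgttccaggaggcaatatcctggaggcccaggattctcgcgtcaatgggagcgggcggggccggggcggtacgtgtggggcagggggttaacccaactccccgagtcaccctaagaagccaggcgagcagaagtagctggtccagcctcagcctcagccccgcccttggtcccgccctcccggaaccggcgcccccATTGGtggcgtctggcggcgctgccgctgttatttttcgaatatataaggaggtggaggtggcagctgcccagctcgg
In Mki67 and Ccnb2 the capitals mark CCAAT boxes, on either strand, and CHR matches.
Mki67: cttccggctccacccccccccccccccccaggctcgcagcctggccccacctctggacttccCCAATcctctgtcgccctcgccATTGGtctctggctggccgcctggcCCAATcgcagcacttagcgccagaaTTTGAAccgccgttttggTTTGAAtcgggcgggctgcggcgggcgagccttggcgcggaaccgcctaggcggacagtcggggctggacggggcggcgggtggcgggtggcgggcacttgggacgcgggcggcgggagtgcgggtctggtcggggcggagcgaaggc
Ccnb2: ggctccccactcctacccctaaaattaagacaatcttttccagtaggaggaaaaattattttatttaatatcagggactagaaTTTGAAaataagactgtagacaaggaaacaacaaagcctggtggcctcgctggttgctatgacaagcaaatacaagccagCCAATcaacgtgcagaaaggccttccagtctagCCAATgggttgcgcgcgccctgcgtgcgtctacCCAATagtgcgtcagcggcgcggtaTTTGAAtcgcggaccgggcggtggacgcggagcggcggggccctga

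Among the 5 G1/S regulators, Ccne2 and E2f8 fell on the ABA diet and Ccne2 fell on the control diet. Ccne2 is cyclin E2, a partner of CDK2 at the start of DNA synthesis. Ccne2 read 4.70, 4.73, 4.98 and 3.82 with LPS, against 7.94 and 5.22 without LPS, on the ABA diet of the wild-type-only experiment, and 4.73 and 5.28 with LPS, against 10.97 and 8.20 without LPS, in the experiment with both genotypes. For Ccne2 on the control diet, the values were 5.83, 5.02, 4.88 and 4.64 with LPS, against 6.20 and 6.02 without LPS, in the wild-type-only experiment, while the other gave 5.39 and 4.89 with LPS, against 8.54 and 9.74 without LPS. Challenged arrays lay below unchallenged ones in each of these 4 pairs of groups. Ccne2's fitted change with LPS was -3.14 ± 0.71 (SE, adjusted p = 0.0071) on the ABA diet and -2.28 ± 0.71 (SE, adjusted p = 0.0367) on the control diet. E2f8, an E2F family member that represses G1/S genes late in the cycle, had a change of -2.87 ± 0.82 (SE, adjusted p = 0.0273) on the ABA diet and -2.40 ± 0.82 (SE, adjusted p = 0.0545) on the control diet. Cyclin E1 (Ccne1), the activator E2f1 and Mybl2, a subunit partner of MuvB, did not pass on either diet, with changes of -1.66 ± 0.63, -0.87 ± 0.32 and -0.44 ± 0.58 (SE) on the ABA diet. Their other probe sets, of lower mean, had fitted changes there of -2.27 (Ccne1), -1.31 and -0.03 (E2f1) and -0.01 (Mybl2). These results are thus those of the probe sets chosen.

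Genes of origin licensing and the helicase had the smallest median changes of all role groups. Of 9 genes, Cdc6 and Mcm5 fell on the ABA diet (median of the 9, -1.13) and 0 passed on the control diet (median -0.39), where Cdc6 alone had an unadjusted p under 0.05. Cdc6 loads the MCM helicase at origins together with CDT1. Cdc6 read 5.80, 6.58, 6.01 and 4.99 with LPS, against 10.06 and 6.71 without LPS, on the ABA diet of the wild-type-only experiment, and 4.39 and 6.01 with LPS, against 10.74 and 7.99 without LPS, in the experiment with both genotypes. For Cdc6 on the control diet, the values were 8.03, 6.42, 6.18 and 5.98 with LPS, against 8.14 and 7.32 without LPS, in the wild-type-only experiment, while the other gave 6.20 and 5.76 with LPS, against 8.72 and 9.90 without LPS. The challenged arrays were lower in each pair but that of the control diet in the wild-type-only experiment, where the groups overlapped. Cdc6's fitted change with LPS was -3.22 ± 0.74 (SE, adjusted p = 0.00737) on the ABA diet and -2.06 ± 0.74 (SE, adjusted p = 0.0636) on the control diet. Mcm2, a subunit of the helicase, had the smallest change of the 50 on the control diet. Mcm2 read 5.36, 5.30, 6.14 and 5.17 with LPS, against 7.80 and 5.42 without LPS, on the ABA diet of the wild-type-only experiment, and 7.11 and 8.05 with LPS, against 10.84 and 8.21 without LPS, in the experiment with both genotypes. For Mcm2 on the control diet, the values were 6.75, 6.24, 5.69 and 6.31 with LPS, against 5.83 and 5.17 without LPS, in the wild-type-only experiment, while the other gave 8.39 and 8.73 with LPS, against 9.19 and 9.76 without LPS. Its groups overlapped on both diets in the wild-type-only experiment, and on the control diet there 3 of 4 challenged arrays read above both unchallenged ones. Mcm2's fitted change with LPS was -1.42 ± 0.54 (SE, adjusted p = 0.0847) on the ABA diet and -0.01 ± 0.54 (SE, adjusted p = 1) on the control diet. Neither passed. The other MCM subunits, Mcm3, Mcm4, Mcm6 and Mcm7, had changes between -1.16 and -0.85 on the ABA diet and none passed, while Mcm5 changed by -1.36 ± 0.39 (SE, adjusted p = 0.027) there. Cdc45, which joins the MCM ring in the active helicase, had the smallest change of the class, at -0.11 ± 0.06 (SE) on the ABA diet. Cdc45 read 7.42, 7.31, 7.27 and 7.31 with LPS, against 7.38 and 7.57 without LPS, on the ABA diet of the wild-type-only experiment, and 3.46 and 3.46 with LPS, against 3.59 and 3.46 without LPS, in the experiment with both genotypes. For Cdc45 on the control diet, the values were 7.31, 7.52, 7.12 and 7.14 with LPS, against 7.31 and 7.31 without LPS, in the wild-type-only experiment, while the other gave 3.39 and 3.46 with LPS, against 3.46 and 3.46 without LPS. This probe set hardly varied between the groups of an experiment. A second Cdc45 probe set, of lower mean, had fitted changes of -0.87 on the ABA diet and -0.51 on the control diet. In the wild-type-only experiment it was at or near the lowest value throughout, and it read 3.19 and 3.21 with LPS, against 6.41 and 3.92 without, in wild-type ABA mice of the experiment with both genotypes. The small change is thus that of the probe set chosen.

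Of 5 genes of nucleotide supply and the fork, Rrm1, Rrm2 and Tk1 fell on the ABA diet (median of the 5, -1.57) and Rrm2 and Tk1 on the control diet (median -0.90). Rrm2 is the S-phase subunit of ribonucleotide reductase, which makes deoxynucleotides. Rrm2 read 9.94, 10.50, 10.51 and 9.80 with LPS, against 13.24 and 10.77 without LPS, on the ABA diet of the wild-type-only experiment, and 9.29 and 9.62 with LPS, against 14.14 and 11.77 without LPS, in the experiment with both genotypes. For Rrm2 on the control diet, the values were 11.75, 10.87, 9.98 and 9.60 with LPS, against 12.17 and 11.56 without LPS, in the wild-type-only experiment, while the other gave 9.88 and 9.32 with LPS, against 12.30 and 13.40 without LPS. Challenged arrays were lower in each pair but the control diet of the wild-type-only experiment. Rrm2's fitted change with LPS was -2.55 ± 0.61 (SE, adjusted p = 0.00977) on the ABA diet and -2.14 ± 0.61 (SE, adjusted p = 0.0232) on the control diet. Tk1, thymidine kinase 1, salvages thymidine. Tk1 read 3.66, 4.04, 3.68 and 3.68 with LPS, against 7.19 and 3.68 without LPS, on the ABA diet of the wild-type-only experiment, and 4.95 and 4.56 with LPS, against 9.66 and 6.73 without LPS, in the experiment with both genotypes. For Tk1 on the control diet, the values were 4.17, 3.91, 3.66 and 3.64 with LPS, against 5.51 and 4.31 without LPS, in the wild-type-only experiment, while the other gave 5.35 and 4.85 with LPS, against 8.48 and 10.31 without LPS. Only the ABA pair of the wild-type-only experiment overlapped among these 4. Tk1's fitted change with LPS was -2.36 ± 0.77 (SE, adjusted p = 0.0493) on the ABA diet and -2.53 ± 0.77 (SE, adjusted p = 0.0319) on the control diet. Pcna, the sliding clamp of the replication fork, is one of the most used proliferation markers. Pcna read 11.68, 11.74, 12.07 and 11.54 with LPS, against 12.60 and 11.56 without LPS, on the ABA diet of the wild-type-only experiment, and 12.23 and 12.65 with LPS, against 14.62 and 13.04 without LPS, in the experiment with both genotypes. For Pcna on the control diet, the values were 12.07, 12.19, 12.05 and 12.10 with LPS, against 12.31 and 11.94 without LPS, in the wild-type-only experiment, while the other gave 13.02 and 12.96 with LPS, against 13.09 and 14.06 without LPS. The groups overlapped on both diets of the wild-type-only experiment and lay apart, by a narrow gap, in the other. Pcna's fitted change with LPS was -0.78 ± 0.30 (SE, adjusted p = 0.0929) on the ABA diet and -0.27 ± 0.30 (SE, adjusted p = 0.611) on the control diet. Pcna did not pass on either diet, and neither did thymidylate synthase (Tyms), at -0.59 ± 0.36 on the ABA diet, whose probe set lay within 0.5 log2 units of the lowest value on every array of the wild-type-only experiment.

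**Figure D2:**
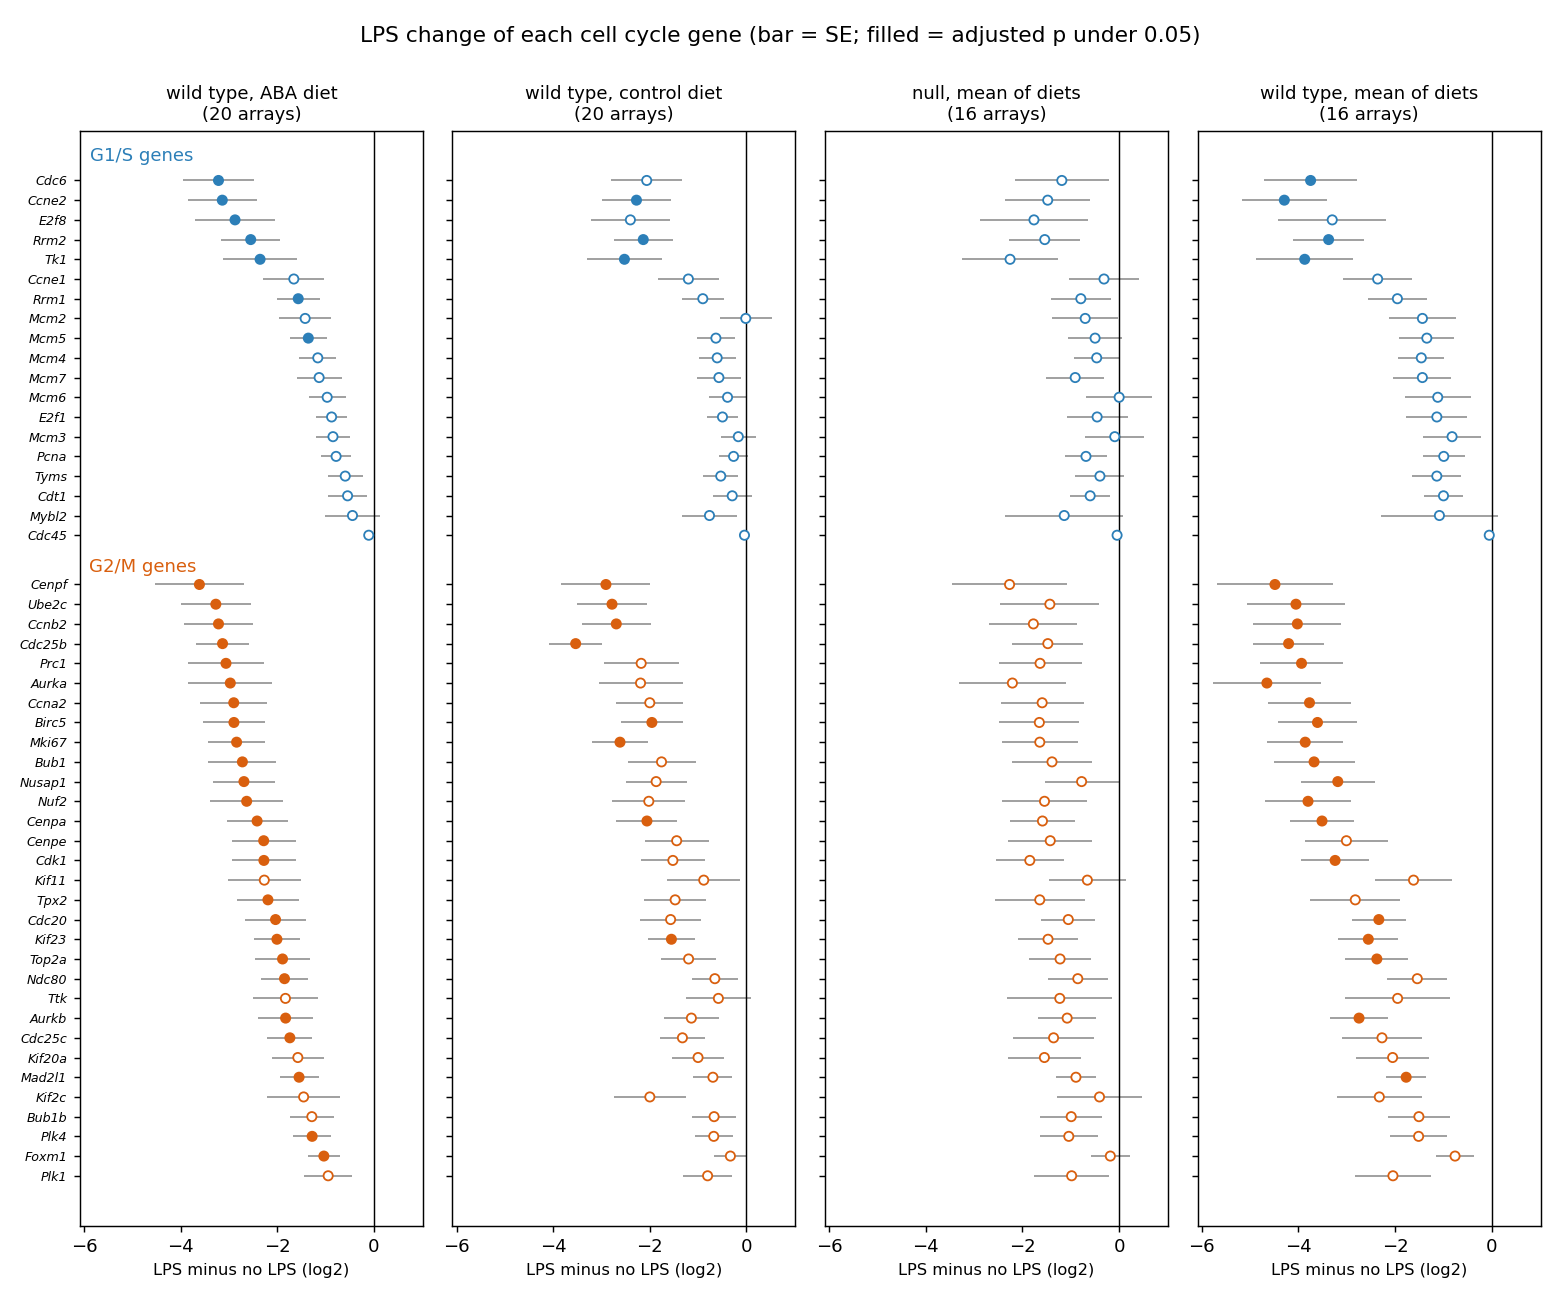
Fitted change with LPS (LPS minus no LPS, log2) of each of the 50 genes, with SE bars, in wild-type mice on the ABA and control diets (20-array fit) and in null and wild-type mice (16-array fit, mean of both diets); filled points passed an adjusted p under 0.05. Filled points number 32, 11, 0 and 23 from left to right, and the medians of G2/M genes (orange) lie further from 0 than those of G1/S genes (blue).

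Mitotic kinases, cyclins and their regulators gave 9 of 11 called on the ABA diet (median -1.83) and 2 of 11 on the control diet (median -1.33). Cdc25b, a phosphatase that activates cyclin-dependent kinase 1 at mitotic entry, had the smallest adjusted p of all 50 on both diets. Cdc25b read 3.82, 2.71, 2.82 and 2.84 with LPS, against 7.04 and 4.81 without LPS, on the ABA diet of the wild-type-only experiment, and 5.73 and 5.40 with LPS, against 10.38 and 7.77 without LPS, in the experiment with both genotypes. For Cdc25b on the control diet, the values were 3.15, 2.55, 2.76 and 2.39 with LPS, against 5.44 and 4.95 without LPS, in the wild-type-only experiment, while the other gave 5.0 and 4.39 with LPS, against 10.03 and 9.14 without LPS. No challenged array reached an unchallenged one in any of the 4 pairs. Cdc25b's fitted change with LPS was -3.13 ± 0.55 (SE, adjusted p = 0.00114) on the ABA diet and -3.53 ± 0.55 (SE, adjusted p = 0.000341) on the control diet. It was also the 1 gene called in both diets within the wild-type-only experiment alone. Ccnb2 is cyclin B2, a partner of CDK1. Ccnb2 read 4.36, 4.82, 5.04 and 4.30 with LPS, against 9.0 and 5.33 without LPS, on the ABA diet of the wild-type-only experiment, and 6.05 and 6.54 with LPS, against 11.73 and 9.15 without LPS, in the experiment with both genotypes. For Ccnb2 on the control diet, the values were 6.37, 5.44, 4.77 and 3.97 with LPS, against 7.55 and 6.27 without LPS, in the wild-type-only experiment, while the other gave 7.07 and 6.37 with LPS, against 10.34 and 10.88 without LPS. The control-diet pair of the wild-type-only experiment overlapped and the others did not. Ccnb2's fitted change with LPS was -3.22 ± 0.71 (SE, adjusted p = 0.00604) on the ABA diet and -2.69 ± 0.71 (SE, adjusted p = 0.0154) on the control diet. Ccna2 (cyclin A2), Cdk1, Cdc25c, Plk4, Aurka, Aurkb and Foxm1 passed on the ABA diet but not on the control diet, with ABA-diet changes between -2.97 and -1.04. Foxm1, the transcription factor of many G2/M genes, had the smallest change of the class on the control diet. Foxm1 read 2.65, 2.65, 2.66 and 2.65 with LPS, against 4.53 and 2.90 without LPS, on the ABA diet of the wild-type-only experiment, and 2.26 and 2.24 with LPS, against 4.32 and 2.26 without LPS, in the experiment with both genotypes. For Foxm1 on the control diet, the values were 2.69, 2.67, 2.65 and 2.29 with LPS, against 2.89 and 2.65 without LPS, in the wild-type-only experiment, while the other gave 2.26 and 2.26 with LPS, against 3.21 and 2.26 without LPS. Most of its values lay within 0.5 log2 units of the lowest, and its call on the ABA diet rests on single unchallenged arrays above it. Foxm1's fitted change with LPS was -1.04 ± 0.33 (SE, adjusted p = 0.0461) on the ABA diet and -0.33 ± 0.33 (SE, adjusted p = 0.549) on the control diet. Plk1, polo-like kinase 1, had the smallest change of the class on the ABA diet. It read the lowest value, 2.29, on every array of the wild-type-only experiment, so its changes of -0.95 ± 0.50 on the ABA diet and -0.80 ± 0.50 on the control diet (SE) come from the other experiment. Plk1 with LPS read 2.57 and 2.35 on the ABA diet there, against 6.06 and 3.40 without, and 2.93 and 3.01 with LPS on the control diet, against 4.15 and 5.42 without. The spindle checkpoint kinase Ttk did not pass on either diet.

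Of 5 genes of the spindle checkpoint and its target, the anaphase-promoting complex, 4 fell on the ABA diet (Bub1, Mad2l1, Cdc20 and Ube2c; median of the 5, -2.04) and 1 on the control diet (Ube2c; median -1.57). Ube2c is the ubiquitin-conjugating enzyme of the anaphase-promoting complex. Ube2c read 5.87, 5.56, 7.30 and 6.20 with LPS, against 10.81 and 7.23 without LPS, on the ABA diet of the wild-type-only experiment, and 7.16 and 8.18 with LPS, against 12.92 and 10.35 without LPS, in the experiment with both genotypes. For Ube2c on the control diet, the values were 7.66, 7.17, 6.22 and 5.65 with LPS, against 8.91 and 7.90 without LPS, in the wild-type-only experiment, while the other gave 8.41 and 7.32 with LPS, against 11.90 and 12.09 without LPS. Its ABA pair in the wild-type-only experiment overlapped, unlike the remaining 3. Ube2c's fitted change with LPS was -3.27 ± 0.73 (SE, adjusted p = 0.00616) on the ABA diet and -2.78 ± 0.73 (SE, adjusted p = 0.0145) on the control diet. All 6 centromere and kinetochore genes fell on the ABA diet (median -2.52) and 3 of the 6 on the control diet (median -1.99). These are the centromeric histone Cenpa, the kinetochore proteins Cenpe, Cenpf, Ndc80 and Nuf2, and Birc5 (survivin, of the chromosomal passenger complex). Cenpf had the largest change of the 50 on the ABA diet, at -3.61 ± 0.92 (SE, adjusted p = 0.0144), beside -2.91 ± 0.92 (SE, adjusted p = 0.038) on the control diet. Of 7 genes of the spindle and its midzone, 4 fell on the ABA diet (Kif23, Tpx2, Nusap1 and Prc1; median of the 7, -2.19) and 1 on the control diet (Kif23; median -1.55). The motor proteins Kif11, Kif20a and Kif2c passed on neither. The Kif11 probe set used had fitted changes of -2.27 on the ABA diet and -0.88 on the control diet. The other Kif11 probe sets, of lower mean, had -2.42 and -2.47 on the ABA diet and -1.78 and -1.70 on the control diet. The small control-diet change of Kif11 is thus that of the probe set chosen. Top2a, which untangles DNA, fell on the ABA diet by 1.89 on the log2 scale. Mki67, the Ki-67 antigen that coats mitotic chromosomes, fell on both diets. Mki67 read 11.56, 11.34, 11.88 and 11.12 with LPS, against 14.57 and 12.54 without LPS, on the ABA diet of the wild-type-only experiment, and 9.10 and 9.06 with LPS, against 14.12 and 11.65 without LPS, in the experiment with both genotypes. For Mki67 on the control diet, the values were 12.65, 12.05, 11.38 and 11.06 with LPS, against 13.75 and 13.19 without LPS, in the wild-type-only experiment, while the other gave 9.64 and 8.27 with LPS, against 12.69 and 13.02 without LPS. Challenged arrays were lower in each of the 4 pairs. Mki67's fitted change with LPS was -2.84 ± 0.58 (SE, adjusted p = 0.00356) on the ABA diet and -2.62 ± 0.58 (SE, adjusted p = 0.00541) on the control diet.

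**Figure D3:**
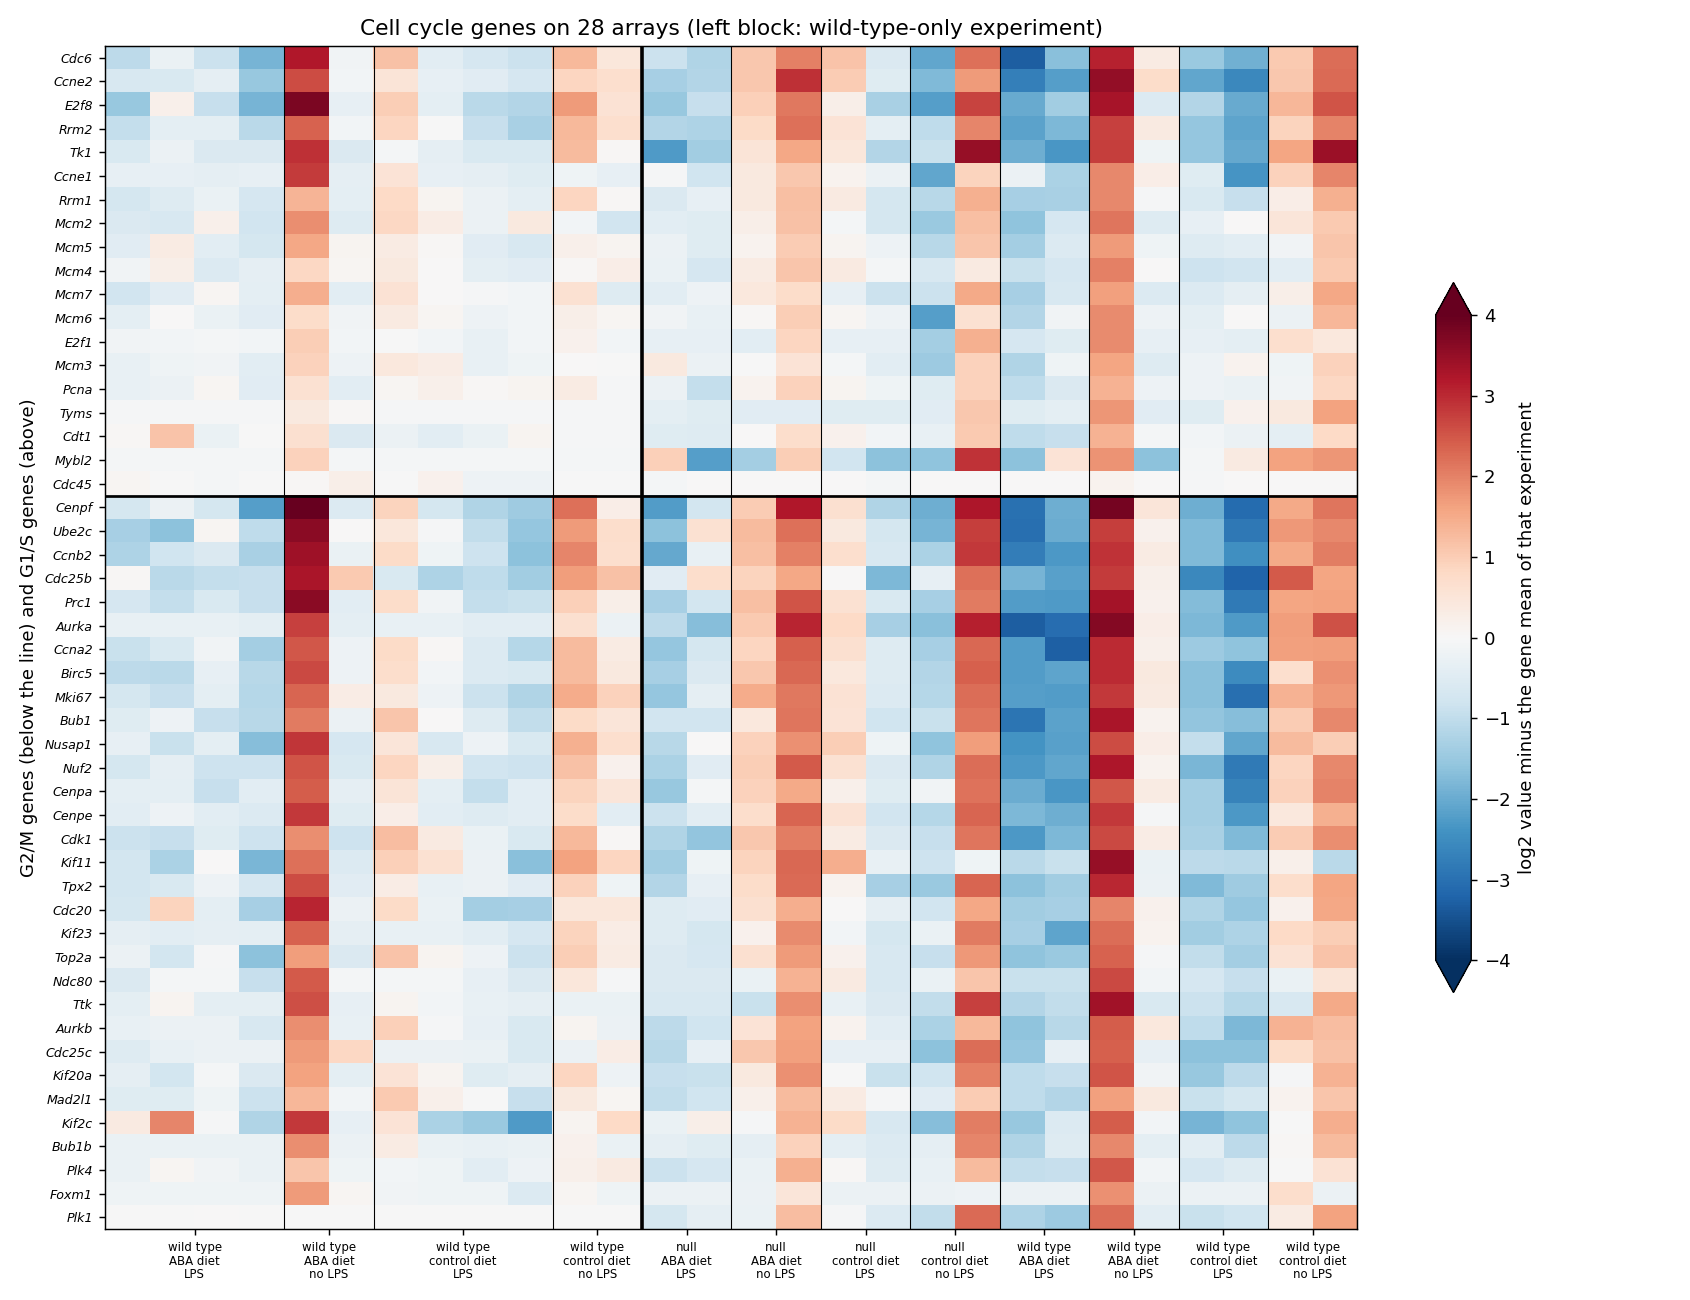
Log2 value of each gene on each of the 28 arrays, minus that gene's mean over its experiment (red above, blue below, colour ending at 4 on either side); G1/S genes above the line and G2/M genes below it, groups along the x axis. Deviations run from -3.31 to 4.32, and single columns, among them replicate 1 of the unchallenged wild-type ABA groups, are red in nearly every row.

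As the heat map shows, the 50 genes moved together within arrays, and columns of the same group could differ as much as groups. A gene cannot read below the lowest value, which bounds its change: 17.34% of G2/M values of challenged arrays in the wild-type-only experiment lay within 0.5 log2 units of it, against 8.87% of unchallenged ones, and 10.53% of G1/S values, against 9.21%. In the experiment with both genotypes the G2/M shares were 7.66% with LPS, against 2.42% without. Other probe sets of the same genes mostly went the same way: of 62, 53 were lower with LPS on the ABA diet and 45 on the control diet, and 0 were higher by over 0.5 log2 units on either. The 62 include probe sets near the lowest value that could hardly move. Among these, an E2f1 one at -0.0026 on the control diet counts as lower, and some of Tyms, Foxm1, Top2a and Cdt1 had a change of 0. A Plk4 probe set was higher by 0.34 on the control diet.

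Null mice gave no call with all arrays in. In a fit of the 16 arrays from the experiment that ran both genotypes, averaged over diets, 0 of 50 genes passed with LPS in null mice (limma, 3 at an unadjusted p under 0.05, beside 7.40% of 13377 genes called in either direction), and 23 of 50 fell in wild-type mice of that experiment (beside 5.49% of genes falling). Leaving out 1 array gave 0 to 2 calls in null mice, Tk1 and Cdk1 without unchallenged control-diet replicate 1, and 2 to 39 in wild-type mice, 2 without challenged control-diet replicate 2 and 39 without unchallenged ABA replicate 2. The median change was -1.16 in null mice and -2.35 in wild-type mice, and 49 of 50 changes in null mice were negative. By class the medians were -1.42 in null mice and -2.82 in wild-type mice for G2/M genes (0 and 19 of 31 called), and -0.68 in null mice and -1.43 in wild-type mice for G1/S genes (0 and 4 of 19 called). Challenged arrays all read below unchallenged ones for 0 of 50 genes in null mice (beside 6.97% of all genes) and for 38 of 50 in wild-type mice (beside 7.96%).

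Mki67 in null mice read 9.76 and 10.94 with LPS, against 12.80 and 13.43 without LPS, on the ABA diet, and 11.88 and 10.76 with LPS, against 10.16 and 13.52 without LPS, on the control diet. Ccnb2 in null mice read 6.77 and 8.52 with LPS, against 10.04 and 10.83 without LPS, on the ABA diet, and 9.49 and 8.19 with LPS, against 7.55 and 11.66 without LPS, on the control diet. Cdc25b in null mice read 7.13 and 8.27 with LPS, against 8.47 and 9.12 without LPS, on the ABA diet, and 7.58 and 5.76 with LPS, against 7.26 and 9.79 without LPS, on the control diet. In each of these genes the ABA groups stood apart, and on the control diet unchallenged replicate 1 read below at least 1 challenged array. Ccne2 in null mice read 6.14 and 6.30 with LPS, against 8.56 and 10.40 without LPS, on the ABA diet, and 8.49 and 6.97 with LPS, against 5.69 and 9.16 without LPS, on the control diet. Rrm2 in null mice read 10.23 and 10.19 with LPS, against 12.17 and 13.63 without LPS, on the ABA diet, and 11.95 and 11.03 with LPS, against 10.39 and 13.37 without LPS, on the control diet. Tk1 in null mice read 4.62 and 5.51 with LPS, against 7.41 and 8.44 without LPS, on the ABA diet, and 7.36 and 5.73 with LPS, against 6.01 and 10.38 without LPS, on the control diet. The same array, unchallenged replicate 1 of the control diet, read below both challenged ones for Ccne2 and Rrm2 and below 1 of them for Tk1. By diet, the median change of the 50 in null mice was -1.72 on the ABA diet and -0.56 on the control diet. Smallest adjusted p-values among G2/M genes in null mice belonged to Cdk1, the mitotic kinase, at -1.85 ± 0.71 (SE, adjusted p = 0.165), Cenpa at -1.58 ± 0.67 (SE, adjusted p = 0.202) and Kif23, a midzone motor, at -1.47 ± 0.62 (SE, adjusted p = 0.206). Cdk1 in null mice read 7.43 and 7.05 with LPS, against 9.71 and 10.68 without LPS, on the ABA diet, and 8.95 and 8.07 with LPS, against 7.70 and 10.79 without LPS, on the control diet. Cenpa in null mice read 7.48 and 8.89 with LPS, against 9.91 and 10.50 without LPS, on the ABA diet, and 9.19 and 8.49 with LPS, against 8.82 and 11.15 without LPS, on the control diet. Kif23 in null mice read 6.65 and 6.47 with LPS, against 7.33 and 9.04 without LPS, on the ABA diet, and 7.05 and 6.47 with LPS, against 6.90 and 9.25 without LPS, on the control diet. All 3 had separate groups on the ABA diet and overlapping ones on the control diet. Cenpa in wild-type mice of that experiment read 7.01 and 6.64 with LPS, against 11.47 and 9.31 without, on the ABA diet, and 7.62 and 6.32 with LPS, against 9.89 and 10.96 without, on the control diet, with a change of -3.51 ± 0.67 (SE, adjusted p = 0.0105).

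Pcna, Mcm2 and Mcm6 had small changes in null mice, and none passed. Pcna in null mice read 13.01 and 12.28 with LPS, against 13.37 and 14.14 without LPS, on the ABA diet, and 13.33 and 13.05 with LPS, against 12.74 and 14.15 without LPS, on the control diet. Mcm2 in null mice read 8.29 and 8.22 with LPS, against 8.94 and 9.88 without LPS, on the ABA diet, and 8.63 and 8.01 with LPS, against 7.22 and 9.93 without LPS, on the control diet. Mcm6 in null mice read 9.74 and 9.60 with LPS, against 9.94 and 10.89 without LPS, on the ABA diet, and 9.98 and 9.70 with LPS, against 7.70 and 10.49 without LPS, on the control diet. Again the ABA groups were apart and the control-diet groups overlapped, with 1 unchallenged array low. Their changes were -0.68 ± 0.44, -0.70 ± 0.69 and 0.0024 ± 0.69 (SE), that of Mcm6, a helicase subunit, being the smallest of the G1/S class. Foxm1 in null mice read 2.26 and 2.26 with LPS, against 2.26 and 2.97 without LPS, on the ABA diet, and 2.26 and 2.26 with LPS, against 2.26 and 2.27 without LPS, on the control diet. It was within 0.5 log2 units of the lowest value on all but 1 of these arrays, and its change of -0.18 ± 0.40 (SE) was the smallest of the G2/M class.

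The genotypes were set against each other directly. The difference of the LPS change, null minus wild type, passed for 0 of 50 genes (median 1.17, limma; 0.0299% of all genes called), with an unadjusted p under 0.05 for Cdc25b (2.73 ± 1.04) and Ccne2 (2.81 ± 1.24), both SE. With LPS, 0 of 50 differed between null and wild type (median 0.87, G2/M 1.04 and G1/S 0.34; 0.0299% of all genes called), and 4 had an unadjusted p under 0.05: Cdc25b (2.06 ± 0.74), Cenpa (1.61 ± 0.67), Nusap1 (1.83 ± 0.77) and Mki67 (1.82 ± 0.79), all SE and higher in null. Even so, 19 of 50 genes read higher on all 4 challenged null arrays than on all 4 challenged wild-type arrays, 16 of G2/M and 3 of G1/S (Ccne2, Cdc6 and Rrm2), beside 1.36% of all genes. Cdc25b with LPS read 7.13 and 8.27 in null and 5.73 and 5.40 in wild-type mice on the ABA diet, and 7.58 and 5.76 in null and 5.0 and 4.39 in wild-type mice on the control diet. Without LPS, 0 of 50 differed (median -0.43; 0 at an unadjusted p under 0.05; 0.00748% of all genes called), and 0 of 50 had separate groups, beside 0.120% of all genes lower and 0.202% higher. The smallest p-values there were those of Tyms, Ccne1 and Foxm1, each with an adjusted p of 1.

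Diet alone passed for none of the genes. The difference of the LPS change between diets, ABA minus control, in wild-type mice had a median of -0.61 over the 50 and passed for 0 of them, with 0 at an unadjusted p under 0.05 (limma; 0 of 13458 genes called, 561 at an unadjusted p under 0.05). Its smallest p was that of Mcm2, at -1.41 ± 0.75 (SE, adjusted p = 0.956), then Ndc80 and Mad2l1. So the counts of 32 on the ABA diet and 11 on the control diet are not shown to differ. Challenged wild-type mice on the ABA diet against the control diet had a median of -0.24 (0 of 50 called; 0.0149% of all genes), with Kif2c, Mcm2 and Pcna at the smallest p-values, adjusted 0.948 each. Unchallenged ones had a median of 0.33 (0 of 50 called; 0.00743% of all genes), with Foxm1, Ndc80 and Cdc45 smallest. In null mice the ABA diet went with a median of -0.49 with LPS (0 of 50 called; 0.0972% of all genes; Mad2l1, Cdk1 and Rrm2 smallest) and 0.72 without LPS (0 of 50 called; 0.179%; Kif11, Ccne2 and Mcm6 smallest).

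Erythroid precursor transcripts moved with the division genes. The list holds 14 genes with a probe set, among them Slc4a1 (the red cell anion exchanger), Klf1 and Gata1 (transcription factors of red cell precursors) and Alas2 (the first enzyme of heme synthesis in them). On the ABA diet 10 of the 14 fell with LPS (median -4.06) and on the control diet 8 of the 14 (median -3.65), in wild-type mice. In the 16-array fit 0 fell in null mice (median -1.71) and 11 in wild-type mice (median -4.91). So the list was lower with LPS wherever the 50 genes were called lower. The mean erythroid level was 5.26 to 6.65 with LPS, against 9.40 to 12.3 without, on wild-type arrays of the experiment with both genotypes, and 6.86 to 9.94 with LPS, against 7.01 to 12.2 without, on null arrays. In the wild-type-only experiment it was 4.24 to 6.15 with LPS, against 5.17 to 10.3 without. These ranges pool the diets. Within a diet the erythroid means stood apart in both wild-type pairs of groups in the experiment with both genotypes, in null ABA mice (6.86 and 9.30 with LPS, against 10.65 and 11.65 without) and in control-diet mice of the wild-type-only experiment (4.72 to 6.15 with LPS, against 6.24 and 8.29 without). They overlapped in null control-diet mice and in ABA mice of the wild-type-only experiment. In mice of the wild-type-only experiment, Epor, Ank1 and Trim10 stayed near the lowest value on each of the 8 challenged arrays, while 0 of the 14 were so in each other set of arrays with or without LPS. Slc4a1 read 3.98 to 9.74 with LPS, against 9.06 to 13.9 without, in the wild-type-only experiment.

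**Figure D4:**
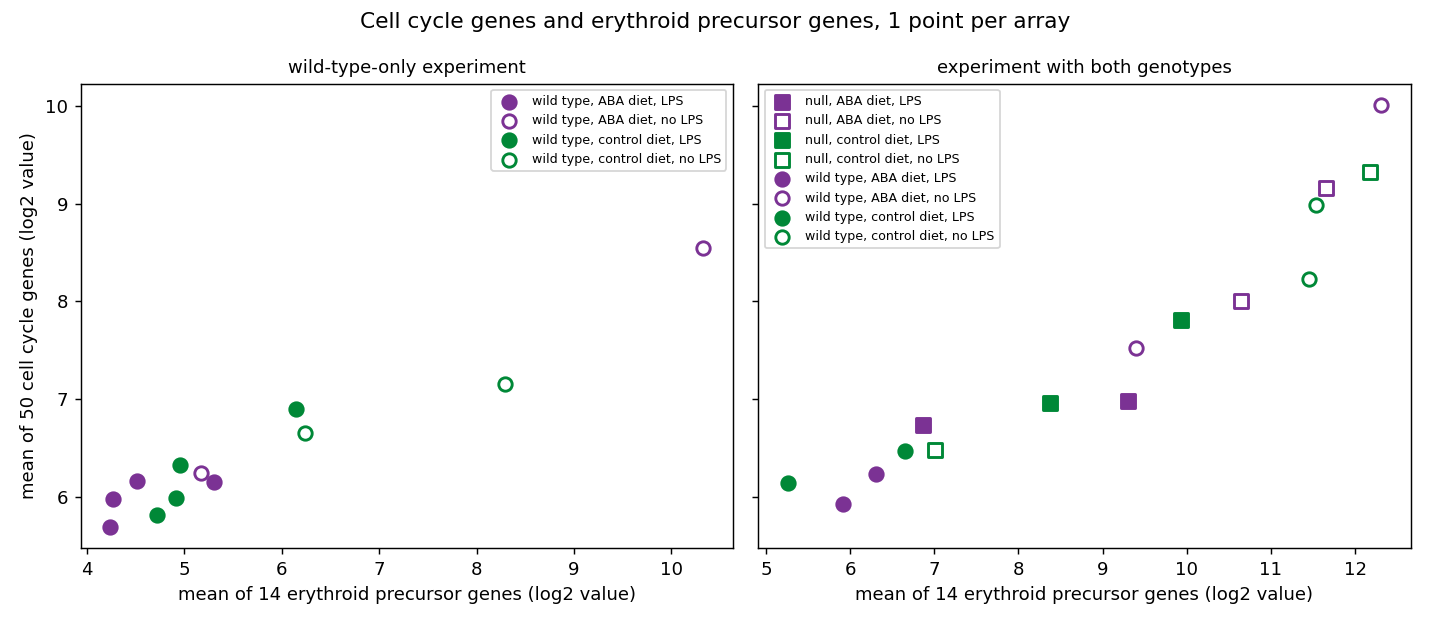
Mean log2 value of the 50 division genes (y axis) against the mean of 14 erythroid precursor genes (x axis), 1 point per array, in each experiment; filled points had LPS, squares are null, and colour gives the diet. Arrays with higher erythroid means mostly had higher division gene means. The unchallenged null control-diet array at an erythroid mean of 7.01 lies within the erythroid range of the challenged null arrays (6.86 to 9.94). Its division gene mean, 6.48, lies below theirs (6.74 to 7.81).

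In all 10 groups of 2 arrays, the array with the higher mean of the 50 was also the one with the higher erythroid mean; the same was so of 7 groups for pancreas markers, 5 for granulocyte precursors, 3 for T cells, 3 for red pulp macrophages, 2 for B cells, 1 for germinal centre B cells and 0 for plasma cells. Red pulp macrophage markers also separated with LPS, at 8.97 to 10.53 with LPS, against 10.99 to 12.25 without, in wild-type mice of the experiment with both genotypes, and 9.32 to 10.01 with LPS, against 11.5 to 12.4 without, in null mice. In the wild-type-only experiment granulocyte precursor markers were lower after challenge, at 4.09 to 4.93 with LPS, against 5.03 to 6.46 without. In the experiment with both genotypes they were 4.84 to 5.48 with LPS, against 3.99 to 4.97 without, in null mice and 4.81 to 5.49 with LPS, against 4.28 to 4.97 without, in wild-type mice. Of these 9 markers, 4 were near the lowest value on every challenged array of the wild-type-only experiment. In the other experiment that was so of 2 in null mice and 4 in wild-type mice. The 6 germinal centre B cell markers averaged 4.50 to 4.82 with LPS, against 4.01 to 5.15 without, in wild-type mice of the experiment with both genotypes and 4.54 to 5.21 with LPS, against 4.15 to 4.86 without, in null mice. Of these 6, Mybl1 and Gcsam were near the lowest value on every challenged array of that experiment. Fas rose by 2.47 with LPS in its wild-type mice. Without LPS, only Mybl1 was near the lowest value on every wild-type array of that experiment, and 0 of the 6 were on every null array. The mean thus joins genes near the lowest value after challenge with 1 that rose. With the erythroid mean of each array added to the fit as a term, the median LPS change of the 50 in wild-type mice was 0.06 on the ABA diet, with 0 called, and 0.50 on the control diet, with 42 of 50 positive. On the control diet 3 were then called: Mcm2 and Cenpe as higher with LPS (1.82 and 1.01), and Cdc25b as lower (-1.69). In the 16-array fit with that term the median change was -0.20 in null mice and 0.28 in wild-type mice, and with LPS null minus wild type was -0.37. That term itself moved with LPS, so the fit with it and the fit without it answer different questions.

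Leaving out the 4 arrays with pancreas transcripts, a setting chosen after the data were seen, 25 genes were called on the ABA diet, 5 on the control diet (Ccnb2, Cdc25b, Cdc25c, Ube2c and Mki67) and 29 in wild-type mice of the experiment with both genotypes; in null mice the median change was then -0.16. The arrays left out include the unchallenged null array of higher division gene mean on each diet (9.16 on the ABA diet, 9.33 on the control diet). A single array was left in each of these groups, at 8.01 on the ABA diet and 6.48 on the control diet. Challenged null arrays lay at 6.74 to 7.81. The value of -0.16 thus depends on which unchallenged null arrays remained. With a term for high Xist in the fit, 25 genes were called on the ABA diet, 6 on the control diet and 24 in wild-type mice of the experiment with both genotypes. The part of other cell types in these differences was not tested.

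Further genes of the cycle were read from lists of the same kind. Of 41 further G1/S genes tested, 9 fell on the ABA diet, beside 6.33% of all genes, and 2 on the control diet, where 1 rose, beside 7.50% of all genes falling and 10.6% rising. The control-diet counts are thus not above those shares: Pold1, the catalytic subunit of DNA polymerase delta (-0.96), and Atad2 (-1.37) fell, and Ung, which removes uracil from DNA, rose (1.002). Of 54 further G2/M genes, 31 fell on the ABA diet and 8 on the control diet, beside the same shares, the control-diet ones led by the condensin subunit Smc4 (-1.22), Cdca3 (-2.48) and the condensin II subunit Ncapg2 (-2.05). In null mice 1 of the G2/M list fell, Ncapg2 (-1.81), and 0 of the G1/S list, beside 7.40% of all genes called in either direction. Ccnb1, cyclin B1, has no probe set naming it alone and was not analysed here. Brakes on the cycle went both ways. Of 19 tested in the 20-array fit, 3 rose and 5 fell on the ABA diet, beside 3 up and 7 down for control-diet mice. Over all genes 8.93% rose and 6.33% fell on the ABA diet. Cdkn1a, the inhibitor p21, rose by 3.41 on the ABA diet and 3.51 on the control diet (adjusted p = 9.51e-07 there), and by 2.26 in null mice. The stress gene Gadd45b rose by 2.51 on the control diet and 2.87 in null mice, and Gadd45g rose by 0.58 on the control diet, while Tob1, Gadd45a and Btg2 fell on it. In null mice 4 brakes rose, the inhibitor Cdkn2b (1.39) among them, and Btg2 fell (-1.25), beside 7.40% of all genes called in either direction.

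Genes of G1 entry went both ways. Of 9 tested, cyclin D2 (Ccnd2) rose with LPS in wild-type mice by 2.21 on the ABA diet and 2.52 on the control diet, and in null mice by 1.99. Myc, a transcription factor that drives cell growth, rose by 2.20 on the ABA diet and 2.34 on the control diet, and in null mice its change of 1.38 did not pass (adjusted p = 0.0602). Cdk4, the kinase partner of the D cyclins, rose on the control diet (0.74). E2f2 fell, at -3.16 on the ABA diet and -2.89 on the control diet, and in the 16-array fit Cdk2 fell in null mice (-1.005) and in wild-type mice (-1.06). Cyclins D1 and D3 (Ccnd1 and Ccnd3) did not pass in any of these comparisons.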

How the data were processed

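The deposited table holds log2 expression values of 45101 probe sets on 28 arrays, which the authors made with tools named as GCRMA and limma per the submitters' processing notes, with no versions given in the sources used here. The log2 scale and the separate normalisation of the 2 experiments were read from the values. By the platform annotation that GEO holds, 34945 probe sets carry a single gene symbol, 932 more than 1 and 9224 no symbol, and each of 18193 genes was read through its probe set of highest mean. The members and all gene lists were chosen with earlier results of these data known. Groups came from the labels of diet, genotype and challenge, and the experiment from the titles.

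The models were linear, from limma (version 3.58.1, R 4.3.3), moderated with eBayes and tested on simulated data. One took the 20 wild-type arrays with a term for experiment (13458 genes, 15 residual df), the other all 16 arrays from the experiment that ran both genotypes (13377 genes, 8 residual df). Benjamini-Hochberg adjustment ran over all genes above the 40th percentile of their array on at least 4 or 2 arrays; all 50 members passed that filter. The ± after a change is its standard error. Depth has no counterpart on these arrays, and their number limits the precision. All array values are printed for the 3 members of smallest adjusted p and the 1 of smallest change in each class and LPS comparison, and for Mki67, Ccnb2, Pcna and Mcm2. Genes of other lists were named by smallest adjusted p, up to 3 each way. Alternatives covered the filter, scaling, probe set choice, variance model, array weights, replicate numbers, Xist, erythroid level, each experiment and diet alone, and each array left out. Figures were drawn with matplotlib 3.10.9. Promoter windows are RefSeq's on GRCm38.p6.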

Additional observations from a re-analysis of the deposited data

Results flagged for a closer look

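In 6 of 70 values tested for an array far from the rest of its group, 1 of the 4 challenged arrays stood apart by Dixon's criterion, where chance gives about 1 in 20. Only groups of 4 arrays could be tested, and only the wild-type-only experiment has them. On the ABA diet, Cdc25b read 3.82 on replicate 1, against 2.71 to 2.84 on the others. Replicate 3 of that group was low for Cenpa, at 3.26, against 3.76 to 3.80, and high for Birc5, at 7.51, against 6.71 to 6.78. On the control diet, replicate 1 was the high array for 3 genes: Ccne1 at 5.83, against 4.81 to 4.97, Bub1b at 5.09, against 4.46 to 4.49, and Cenpe at 3.68, against 2.93 to 3.02. Without that control-diet array, 18 of the 50 genes were called lower with LPS on the control diet, against 11 with it.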

How the results depend on the processing

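Counts of called genes depended on the processing, and directions mostly did not. The cause was not tested. Shares of all genes called are not given for most of these settings, so low counts are not shown to lie above them. For wild-type mice fed the control diet, 11 became 7 without the filter (more genes tested), 17 with a 60th percentile filter (fewer genes tested), 17 with array weights, 6 with a term for high Xist and 5 without the arrays that hold pancreas transcripts. Within the wild-type-only experiment 1 was called and within the other 0, with fewer arrays each. With the erythroid mean as a term 3 were called and the median turned positive. On the ABA diet, 32 became 8 with array weights, 0 with the erythroid term, 3 within the wild-type-only experiment and 0 within the other. In wild-type mice of the experiment with both genotypes, 23 became 0 with the erythroid term, 1 on the control diet alone and 0 on the ABA diet alone. Replicate numbers were not taken to pair the arrays. Deviations of same-numbered arrays correlated at -0.15 to 0.384 in 14 pairs of arrays of the wild-type-only experiment, 5 of them over 0.1. In the other experiment they correlated at -0.71 to 0.505 in 56 pairs of arrays, 20 over 0.1. Between groups of 2 arrays, replicates 1 and 2 give the same value by construction. Each value of that experiment is thus counted under both replicate numbers. A replicate block gave 18 calls on the ABA diet and 5 on the control diet, and changed no other count by over 1.5 times. Leaving out 1 array gave 4 to 22 on the control diet: of the wild-type-only experiment, 18 without challenged control-diet replicate 1, 6 without replicate 3 or 4, and 17 without unchallenged ABA replicate 2; of the other, 22 without unchallenged ABA replicate 1, 4 without unchallenged control-diet replicate 1 or 2, 5 without challenged control-diet replicate 1 and 4 without its replicate 2. On the ABA diet it gave 9 to 42, with 9 and 14 without unchallenged replicate 1 of either experiment, and 19 and 20 without challenged replicate 1 or 2 of the experiment with both genotypes. In wild-type mice of that experiment it gave 2 to 39: on the ABA diet 5 and 39 without unchallenged replicate 1 or 2 and 11 and 3 without challenged replicate 1 or 2, and on the control diet 11 and 8, and 12 and 2. In null mice it gave 0 to 2, with Tk1 and Cdk1 called without unchallenged control-diet replicate 1. A group left with 1 array was assumed to vary like the others. The diet, genotype and interaction comparisons stayed at 0 called under each alternative run. None of the 66 calls of single genes turned direction under the settings run for them, which left out the erythroid term.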
